A study of Mus musculus with 38 samples.

Results

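The comparison described here is that of healthy hippocampus with and without the drug: 4 wild-type (WT) mice fed anle138b against 4 WT mice fed placebo, all analysed at 6 months of age. These 8 mice, chosen by their library titles, were 8 of the 38 mice of the series, which also held WT mice of 10 months and APPPS1ΔE9 mice, a model of amyloid pathology, of both ages. Hippocampal RNA was sequenced from single mice, and reads were counted per gene. Anle138b-treated mice (33, 39, 41 and 83) received food pellets with 2 g anle138b per kg from 2 months of age for 4 months, and placebo-treated mice (30, 31, 37 and 77) received the same pellets without the compound. All 8 were on a C57BL/6 background, carried no transgene by their titles and were the littermate controls of the pre-plaque group. The genotype field of the placebo-treated mice names the transgenic line, against their titles. App, the gene of the amyloid precursor protein, lay between 1623 and 1799 CPM (counts scaled to a library total of 1e6) in all 8 mice and between 3276 and 4286 CPM in the 8 APPPS1ΔE9 mice of the same age, so the titles were followed.

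Anle138b is a diphenylpyrazole that binds aggregates of amyloid β, tau, α-synuclein and prion protein, and it reaches the brain when given in food. A foreign compound can also change transcription through receptors that sense such molecules: the Ah receptor, which switches on Cyp1 enzymes, NRF2, which answers electrophiles and oxidants, CAR and PXR, which answer many drugs, and the PPARs, which answer lipids. The hippocampus borders on the lateral ventricle, whose choroid plexus makes cerebrospinal fluid and is the main site of transthyretin (Ttr) expression in the brain. How much of that tissue and of the meninges stays on a dissected hippocampus is known to vary between animals.

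Total counts ranged from 17764531, in anle138b-treated mouse 39, to 27872870. The lists of pan-neuronal, pyramidal cell and dentate granule cell markers were all tested in full (10, 13 and 11 genes). Although the study's methods describe male animals, Xist, the RNA of the inactive X chromosome, was at 1154 to 1387 CPM in placebo-treated mice 30, 31 and 77 and in anle138b-treated mice 33 and 83, and at 1.40 CPM or less in mice 37, 39 and 41. The sum of 4 genes of the Y chromosome (Uty, Kdm5d, Eif2s3y and Ddx3y) was at 174 to 358 CPM in the latter mice and at 0.338 CPM or less in the others. Both arms therefore held libraries of both kinds, 3 Xist-high of 4 under placebo and 2 of 4 under anle138b. The libraries of mice 39, 77 and 83 stood apart from the other 5. All 4 placebo-treated mice and mice 33 and 39 were sequenced in lane 4, and mice 41 and 83 in lane 5, so lane and treatment were partly confounded.

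None of the 16766 genes tested changed with the drug at an adjusted p of 0.1, the threshold for a call (edgeR's quasi-likelihood test with Benjamini-Hochberg adjustment, percent called 0). The smallest adjusted p of all genes was 0.9998. Before adjustment 310 genes had a p under 0.05, which was 1.85% of the genes tested, where p-values spread evenly between 0 and 1 would give 5%. Of the 310 genes, 117 (0.698%) had higher and 193 (1.15%) lower values in anle138b-treated mice. That share depended on the setting, with 6.33% with lane as a covariate, 5.35% in lane 4 only, and 0.997% (without mouse 30) to 3.78% (without mouse 77) when single mice were left out. DESeq2 and limma-voom also called 0 of these genes, with 240 and 282 under an unadjusted p of 0.05. For 253 genes (1.51%) all mice of one group lay above all mice of the other.

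How precisely the 8 mice fixed each difference is given by the intervals of the fold changes. For 15474 genes, 92.3% of those tested, the 95% interval of the log2 fold change lay wholly between -1 and 1, that is, within a 2-fold difference in either direction, and for 72.1% of genes it lay between -0.5 and 0.5. The interval reached 0.21 to either side at the median gene, a factor of 1.15. It reached 0.67 (a factor of 1.59) at the median of the 1867 genes under 1 CPM and 0.13 (a factor of 1.1) at the median of the 2289 genes at 100 CPM or more. These are intervals of single genes, without adjustment for the number of genes tested. A call at the adjusted threshold needed larger differences, so these factors are not limits of detection. A p that misses the threshold does not show that the groups were alike. The observed changes were small, with a median absolute log2 fold change of 0.06.

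Among the 20 genes named for the smallest p in each direction, the lncRNA 2700033N17Rik (chromosome 2, 116066218 to 116067444, mm10) had the smallest p of all genes. It was at 1.28, 1.07, 1.08 and 1.12 CPM in placebo-treated mice 30, 31, 37 and 77 and at 0.624, 0.450, 0.541 and 0.525 CPM in anle138b-treated mice 33, 39, 41 and 83. The groups did not overlap, with a log2 fold change of -1.06 (SE 0.21, n = 4 against 4), an unadjusted p of 0.000311 and an adjusted p of 0.9998. Its log2 fold change in WT mice of 10 months was -0.02.

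Taf1c, a subunit of the factor that recruits RNA polymerase I to ribosomal DNA, was at 10.9 ± 0.948 CPM (SD, n = 4) under placebo and at 8.24 ± 0.734 CPM (SD, n = 4) under anle138b, also without overlap (log2 fold change -0.39, SE 0.10). Miip, an inhibitor of cell migration, was at 19.9 to 20.3 CPM in the placebo-treated mice and at 13.2, 18.2, 14.4 and 17.3 CPM in mice 33, 39, 41 and 83. Relative to the mean, the placebo values of Miip lay closer together than those of any other gene of the 20, and its anle138b values were all below them. Fbxo2 and Fbxo44 encode F-box proteins of ubiquitin ligases and lie next to each other on chromosome 4, less than 1 Mb from Miip. These genes and Miip lie in the stretch described below with Casp9 and Eno1. Fbxo2 was at 80.9 ± 5.84 CPM (SD, n = 4) under placebo against 67.5 ± 6.01 CPM (SD, n = 4), and Fbxo44 at 109.9 ± 3.93 CPM (SD, n = 4) against 95.5 ± 5.596 CPM (SD, n = 4), and mouse 83 had the highest treated value of both genes. Cartpt, a neuropeptide precursor, was at 2.96, 3.26 and 2.76 CPM in mice 30, 31 and 37 but at 1.25 CPM in mouse 77, inside the range of 1.07 to 1.43 CPM of the treated mice. Its groups thus differed through the 3 other placebo-treated mice (log2 fold change -0.999, SE 0.26).

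The genes with higher values had low levels or small differences. Oip5, a factor for centromere assembly, was at 0.395 to 0.578 CPM under placebo and at 0.675 to 1.04 CPM under anle138b (log2 fold change 0.97, SE 0.25). Cyp4b1, a cytochrome P450, was at 0.206 to 0.358 CPM against 0.450 to 0.749 CPM (log2 fold change 1.104, SE 0.31, adjusted p = 0.9998, edgeR). It is not a member of the receptor target lists below. Hmgn2, a nucleosome-binding protein, was at 7.93, 8.75, 10.6 and 8.18 CPM under placebo and at 10.6, 13.1, 11.4 and 12.4 CPM in mice 33, 39, 41 and 83. Rbpj, the transcription factor of Notch signalling, was at 11.1 ± 0.485 CPM (SD, n = 4) against 13.0 ± 0.661 CPM (SD, n = 4), with a log2 fold change of 0.24 (SE 0.08). Mios, a part of the complex that passes amino acid supply to mTORC1, had a log2 fold change of 0.22 (SE 0.07), with mouse 39 the highest at 33.3 CPM, and of 0.16 without that mouse. Mouse 39 was the highest for Adgrg6 too, an adhesion receptor, with 5.01 CPM against 2.29 to 2.95 CPM in the other treated mice, and its log2 fold change of 0.73 was 0.44 without mouse 39. In 16 of the 20 genes the groups did not overlap, and 15 of the 20 encode proteins. Because the 20 were taken for their p, these counts only describe them. Whether reads were assigned by strand is not given in the sources used here, so the antisense gene Gm16754 among them may hold reads of its partner.

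**Figure D1:**
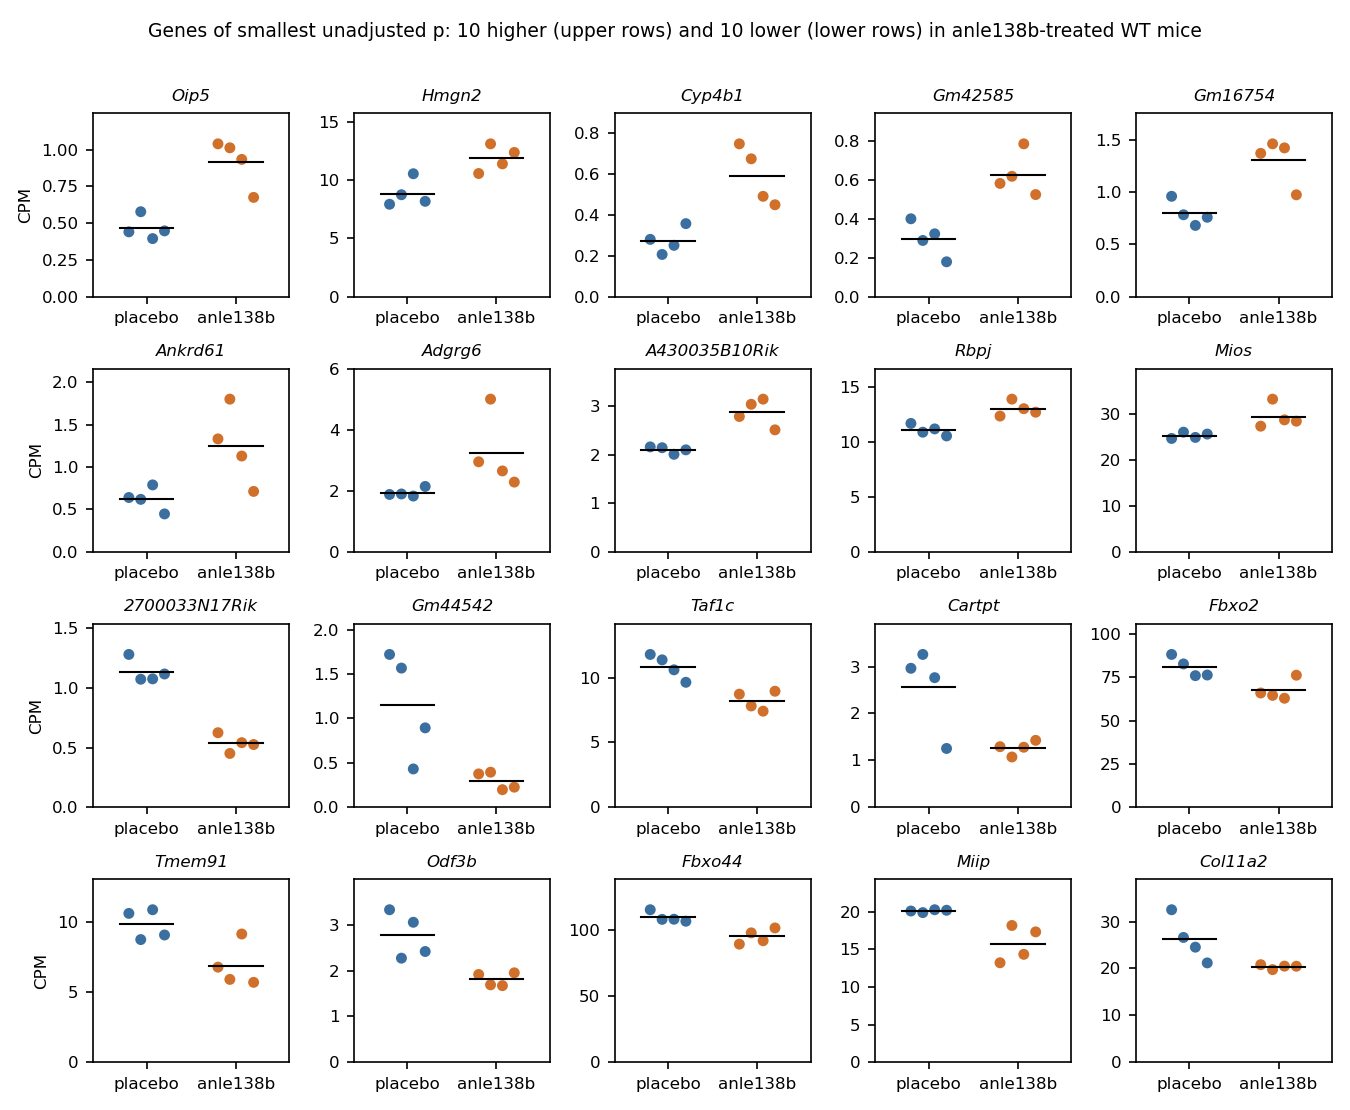
CPM (vertical axes from 0) of the 10 genes with higher and the 10 with lower values of smallest unadjusted p, with a point for each placebo-treated (blue) and anle138b-treated (orange) mouse in the order 30, 31, 37, 77 and 33, 39, 41, 83, and a line at the group mean. The groups do not overlap in 16 of the 20 panels, and all 20 genes have an adjusted p of 0.9998.

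The targets of the receptors that sense foreign compounds were examined next. The members of all lists were compared by their number in each direction and their median log2 fold change, beside 8468 higher and 8298 lower genes and a median of 0.00 over all genes tested. Of 11 Ah receptor targets 7 passed the filter on low counts, and none was called. Of these 6 were higher and 1 lower, with a median of 0.03. The median was 0.13 without mouse 39 and 0.01 in WT mice of both ages, the highest and lowest of the other settings. Cyp1a1, the classical target, was at 0.786 CPM or less in every mouse and was not tested, and Cyp1b1 was at 5.73, 5.98, 3.73 and 3.98 CPM under placebo and at 6.03, 2.98, 5.06 and 5.51 CPM under anle138b. The ranges of Cyp1b1 overlapped fully, with a log2 fold change of 0.03 (95% interval -0.46 to 0.52). Ahrr, the repressor that the Ah receptor induces, was at 1.58 to 1.83 CPM against 1.82 to 2.31 CPM (log2 fold change 0.22, interval -0.14 to 0.58).

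All 17 NRF2 targets were tested, and 10 were higher and 7 lower, with a median of 0.01. Nqo1, a quinone reductase that both NRF2 and the Ah receptor induce, was at 5.77 to 10.1 CPM under placebo and at 10.1, 13.96, 10.3 and 6.38 CPM in mice 33, 39, 41 and 83. Its interval ran from -0.22 to 0.87, and the lowest value of each group came from mice 77 and 83. The log2 fold change of Nqo1, 0.33, was 0.13 without mouse 39 (interval -0.35 to 0.61). Without mice 77 and 83 it was 0.37 (interval 0.04 to 0.71, unadjusted p = 0.0315, adjusted p = 0.9464, edgeR). Osgin1, a growth inhibitor induced by oxidised lipids, had the largest difference of the list at 0.78 (interval 0.02 to 1.53, unadjusted p = 0.0445, edgeR) at levels of 0.280 to 0.861 CPM against 0.563 to 1.124 CPM.

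Of 14 targets of CAR and PXR 7 were tested, with 4 higher, 3 lower and a median of 0.02. The untested ones included Cyp2b10 and Cyp3a11, the drug-metabolising enzymes by which CAR and PXR activity is read in liver, at no more than 0.0832 and 0.5205 CPM in any mouse. Por, the electron donor of these enzymes, was at 70.8 to 85.3 CPM under placebo and at 70.6 to 75.2 CPM under anle138b (log2 fold change -0.09, interval -0.22 to 0.04). Of 14 PPAR targets 12 were tested and 8 of them were lower, with a median of -0.03, and Cpt1a, which brings fatty acids into mitochondria, had a log2 fold change of 0.07 (interval -0.23 to 0.36). Cyp4a10 and Cyp4a14 were at 0.0832 CPM or less.

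Genes of protein quality control, of the drug's known target proteins and of synapses showed medians close to 0 as well. Heat shock proteins (14 tested, 9 higher) had a median log2 fold change of 0.02 and the unfolded protein response (14 tested, 7 higher) of 0.01. The median of the latter was 0.24 in lane 4 only, and without mouse 39 both medians were -0.02. Hspa5, the main chaperone of the endoplasmic reticulum, was at 259 to 365 CPM under placebo and at 393, 475, 281 and 257 CPM in mice 33, 39, 41 and 83, so that the treated mice enclosed the placebo range, and its log2 fold change went from 0.19 to 0.01 without mouse 39. Of the 16 genes of the amyloid, tau, synuclein and prion list 6 were higher and 10 lower, with a median of -0.03 and a highest and lowest difference of 0.11 and -0.13. App had a log2 fold change of 0.00 (interval -0.12 to 0.12) and Prnp, the prion protein gene, of -0.05.

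Among 21 glutamate receptor and postsynaptic genes (median -0.02), Gria1, an AMPA receptor subunit, had a log2 fold change of 0.06 (interval -0.09 to 0.20). Grm2, a presynaptic metabotropic receptor, was at 38.7 to 51.7 CPM under placebo and at 36.2 to 42.9 CPM under anle138b, with a log2 fold change of -0.19 and the only unadjusted p under 0.05 of the list (0.0407, edgeR). The 17 presynaptic genes kept within -0.08 to 0.04, with Snap25, a SNARE protein of vesicle fusion, at 2367 to 2869 CPM and 2370 to 2741 CPM. Immediate early genes, which report recent neuronal activity, had a median of -0.05 and 13 of 20 lower, but the median was 0.05 without mouse 30 and -0.10 without mouse 83. Fos was at 8.93, 7.26, 5.202 and 4.78 CPM under placebo and at 5.03, 4.17, 3.54 and 6.30 CPM under anle138b (interval of the log2 fold change -0.94 to 0.06), while Npas4, another activity-dependent transcription factor, had the opposite sign at 0.40 (interval -0.02 to 0.82).

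**Figure D2:**
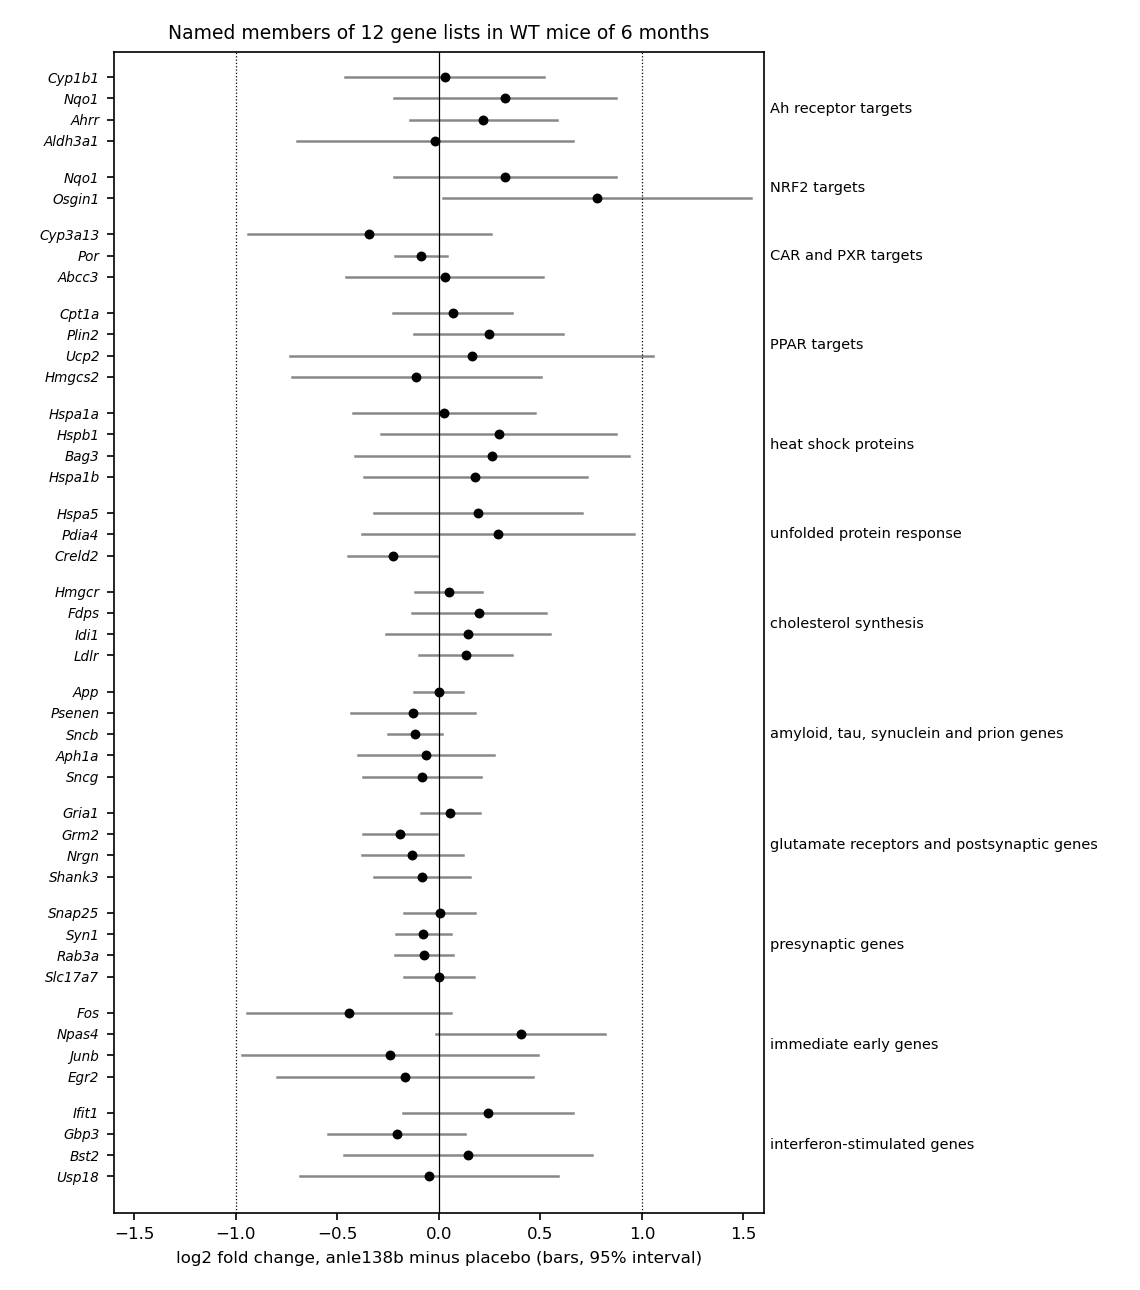
Log2 fold changes of anle138b over placebo (points) with 95% intervals (bars) for the members named by a fixed rule from 12 gene lists in WT mice of 6 months, with dotted lines at a 2-fold difference. Most intervals hold 0 and lie inside the dotted lines, and Osgin1 and Ucp2 reach beyond them.

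Lists of energy metabolism, of cholesterol synthesis and of glia leaned to one side by small amounts. Of 74 nuclear genes of oxidative phosphorylation 59 were lower in anle138b-treated mice, with a median log2 fold change of -0.04. The list's entry for ATP synthase subunits by their Atp5 names matched no annotated gene, so the 74 may lack subunits of that complex. The mean log2 CPM of the list was 6.45, 6.497, 6.38 and 6.43 in mice 30, 31, 37 and 77 and 6.37, 6.37, 6.42 and 6.43 in mice 33, 39, 41 and 83, and the ranges overlapped. The 4 members with an unadjusted p under 0.05, all subunits of respiratory complexes I and III, were Ndufb10 (-0.14), Ndufc2 (-0.15), Ndufa13 (-0.13) and Uqcr11 (-0.16 on the log2 scale), 4 of 74 beside 1.85% of all genes. The 7 mitochondrially encoded genes tested had a median of 0.01. Of 19 cholesterol synthesis genes tested 15 were higher and 4 lower, with a median of 0.04. That median was -0.04 with lane as a covariate. In the bulk tissue, fewer cells of a type and less RNA per cell cannot be told apart in any of these lists.

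Of 11 markers of oligodendrocyte precursors 10 were lower, with a median of -0.11. Sox10, the transcription factor of the lineage, was at 39.1 to 51.5 CPM under placebo and at 34.9 to 41.2 CPM under anle138b (log2 fold change -0.20, interval -0.38 to -0.01), whereas Pdgfra, the receptor that defines these cells, had a log2 fold change of 0.00 (interval -0.13 to 0.14). Astrocyte markers were lower in 10 of 13 (median -0.07), myelin genes in 10 of 12 (median -0.05) and microglial genes in 11 of 16 (median -0.04). Mouse 39 had the lowest score of the 8 mice in each of these lists. Without it 8 of 13, 6 of 12 and 7 of 16 genes were lower, with medians of -0.03, 0.00 and 0.01, and the precursor markers had 9 of 11 lower and a median of -0.08. Gfap, the astrocytic filament protein, was at 519, 551, 383 and 414 CPM under placebo and at 455, 369, 374 and 419 CPM under anle138b, with a difference of -0.20 (interval -0.47 to 0.07). Of 12 interneuron genes 9 were lower, among them Calb2, the calcium-binding protein calretinin (-0.39, unadjusted p = 0.0311, edgeR) and Slc32a1, the vesicular GABA transporter (-0.23, unadjusted p = 0.0278, edgeR), while Gad1, a GABA-synthesising enzyme, was at -0.03. Calb2 was highest in mice 30 and 37, at 79.5 and 75.3 CPM, and at 46.0 to 55.5 CPM in the other 6 mice. The thalamus list followed the same mice, with scores of 4.01 and 4.37 there and 2.88 to 3.87 in the others, and its part in the Calb2 difference was not tested. No gene of any of the 39 lists was called. In 32 lists the median lay within 0.1 of 0, and in the other 7 (choroid plexus, thalamus, ependyma, oligodendrocyte precursors, blood cells, lymphocytes, and hormones of hypothalamus and pituitary) it lay further out.

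The largest differences were those between mice. The first principal component of the 8 mice took 35.5% of the variance and set mouse 39, at 46.3, against mice 77 and 83, at -28.3 and -24.8, with the other 5 between -4.1 and 3.4. The second took 26.3% and set these 3 mice (-27.3 to -18.4) against the other 5 (9.2 to 17.9), and the third took 10.2%. None of these directions separated anle138b from placebo. Of the variation within groups, summed over genes, mouse 39 held 24%, mouse 83 16.4% and mouse 77 16.1%, and each of the other 5 held 6.69% to 10.5%. The biological coefficient of variation of the fit was 0.137. Estimated per group it was 0.106 under placebo and 0.167 under anle138b. It was 0.081 for placebo without mouse 77 and 0.111 for anle138b without mouse 39.

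**Figure D3:**
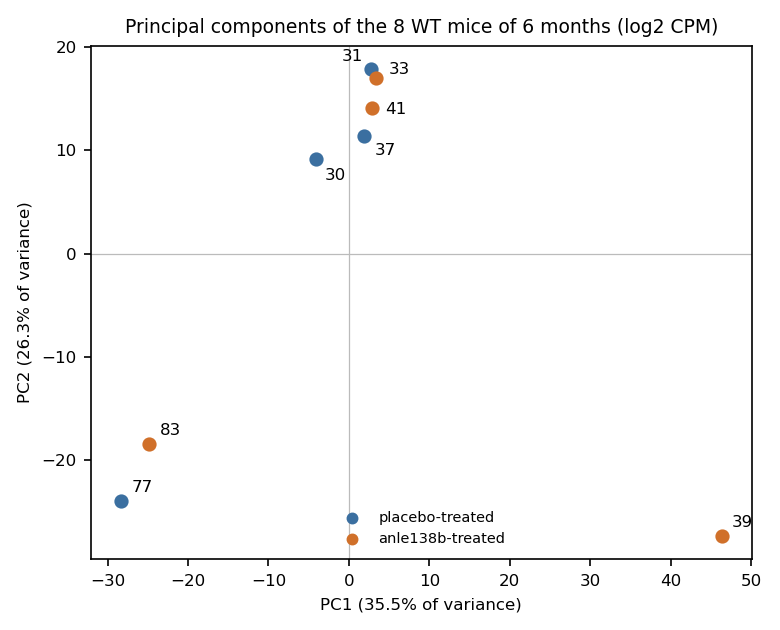
The 8 WT mice of 6 months on the first and second principal components of log2 CPM (axes in component units), coloured by treatment and labelled by mouse number. Mouse 39 lies at 46.3 on the first component, mice 77 and 83 lie together at -28.3 and -24.8, and the other 5 mice of both treatments lie within -4.1 to 3.4.

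The same mice emerged when every mouse and every pair was searched for genes outside the range of the rest, by at least 1.5-fold after adding 0.1 CPM. Mouse 39 had 562 such genes, 466 of them above the other 7 mice. Mouse 77 had 124, all but 1 of them below the rest, and the other 6 mice had 31 to 51. Among the 28 pairs, mice 77 and 83 shared 219 genes, all of them below the other 6 mice, and none of the other 27 pairs had more than 9. Mice 77 and 83 received different treatments.

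The genes low in mice 77 and 83 were led by those of the choroid plexus. Ttr was at 3736, 7229, 5945 and 137 CPM in placebo-treated mice 30, 31, 37 and 77 and at 7468, 6534, 6256 and 207 CPM in anle138b-treated mice 33, 39, 41 and 83. One mouse of each group was thus low by more than 10-fold, and its log2 fold change between the groups, 0.28, had an interval from -2.90 to 3.45. Without mice 77 and 83 it was 0.27, with an interval from -0.43 to 0.98. Tmem72 showed the same pattern, at 27.6, 67.2, 46.8 and 1.39 CPM under placebo and at 64.5, 56.2, 65.5 and 1.84 CPM under anle138b. Low values in mice 77 and 83 were also found for the potassium channel genes Kcnj13 and Kcne2, the bicarbonate transporter gene Slc4a5 and the water channel gene Aqp1, which serve ion and fluid transport in this epithelium. The mean log2 CPM of the 16 choroid plexus genes was 5.18, 6.12, 5.59 and 1.96 under placebo and 6.09, 5.78, 5.94 and 2.05 under anle138b. Within groups, the values of all 16 list members and of 255 genes in all followed this score with a correlation of 0.95 or more over the 8 mice, where the members are part of the score itself, and 60 genes had a correlation of -0.95 or lower. All 16 members had a higher mean under anle138b (median 0.26), with mouse 30 the lowest of the 6 high mice, and the median was -0.11 without mouse 77, 0.14 without mouse 39 and 0.27 without mice 77 and 83.

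Other mice of the series showed the same levels of Ttr, along the mouse numbers of the titles. The 10 mice of 6 months numbered 15 to 41 had 3736 to 7468 CPM, and the 6 numbered 71 to 84 had 31.7 to 643 CPM. Mice of 10 months had 13.1 to 244 CPM apart from mouse 99, at 4092 CPM. A fit with a term for the number series, which sets mice 77 and 83 apart, called 0 genes, as did the fit with the choroid plexus score as a covariate and the fit to the 3 against 3 mice that remain without 77 and 83. Meningeal fibroblast genes varied along with the epithelium in part. The mean log2 CPM of the 14 genes was 4.07, 4.61, 3.80 and 3.42 in mice 30, 31, 37 and 77. It was 4.67, 3.55, 4.085 and 3.695 in mice 33, 39, 41 and 83, so mouse 39 lay below mouse 83. Igf2 split the mice more sharply than this score. Igf2, a growth factor made by leptomeninges and choroid plexus stroma, was at 172 to 310 CPM in mice 30, 31 and 37, at 209 to 333 CPM in mice 33, 39 and 41, and at 49.9 and 55.96 CPM in mice 77 and 83. The cause of these differences was not tested.

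**Figure D4:**
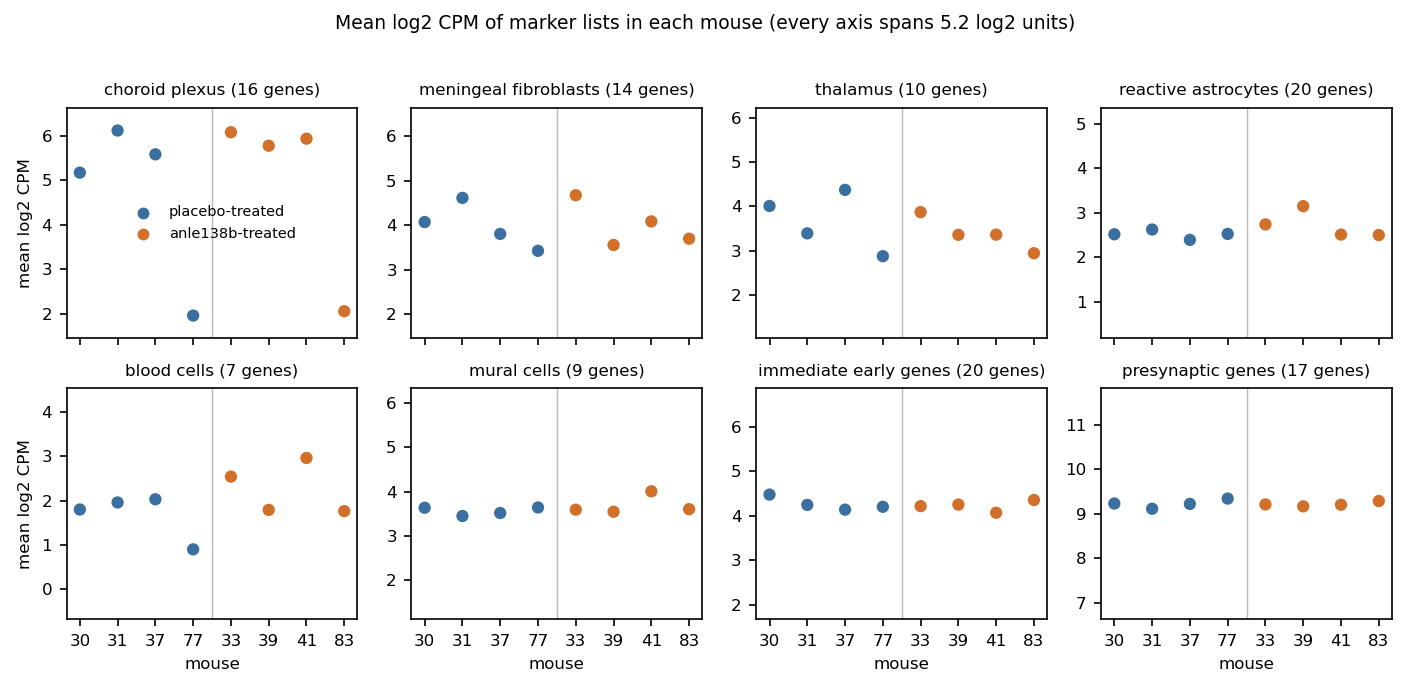
Mean log2 CPM of 8 gene lists in each of the 8 mice (placebo-treated blue, anle138b-treated orange), every vertical axis spanning the same number of log2 units around its own centre. Choroid plexus scores of mice 77 and 83 lie near 2 against 5.18 to 6.12 in the other 6, the reactive astrocyte score of mouse 39 is the highest at 3.15, and presynaptic genes hardly move between mice.

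Mouse 39, from the anle138b-treated group, stood apart by a set of genes far above their level in the other mice. In this mouse, 124 genes were at least 4-fold above the highest of the other 7 mice and at 1 CPM or more, together 3801 CPM. No other mouse had more than 1 such gene. They were spread over 20 chromosomes, and 78 encode proteins while 44 are pseudogenes. Vim, the intermediate filament of mesenchymal and reactive cells, was at 458 CPM against 42.5 to 48.9 CPM in the other 7. S100a6 and Anxa2, a calcium-binding protein and an annexin, were at 321 and 126 CPM against at most 15.2 and 19.3 CPM. Top2a, the topoisomerase of dividing cells, was at 63.5 CPM against 1.13 to 2.10 CPM, and Mcm3, Ncapg, Foxm1, Tpx2 and Tyms, which also serve DNA replication or mitosis, were in the set. Acta1 (103.5 CPM against 5.81 or less), Ccn1, Thbs1, Flnc, Krt8 and the astrocytic gene Ptx3 (10.2 CPM against 0.610 or less) were there too. Processed pseudogenes such as Gm12017 (72.4 CPM against 0.671 or less), Gm5270, Gm5835 and Gm5210, which are copies of other genes' transcripts, showed the highest ratios to the other mice. Over the whole series Gm12017 was at 0.806 CPM or less in the 37 other mice, Top2a at 3.48 CPM or less and Vim at 86.4 CPM or less. The source of this RNA was not tested.

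The genes of this set had wide intervals and yielded no calls. Vim had a log2 fold change of 1.72 with an interval from -0.56 to 4.001, and Ptx3 of 2.34 with an interval from -0.81 to 5.49. Without mouse 39 these were 0.03 (interval -0.12 to 0.17) and -0.29 (interval -0.93 to 0.35). Only 1 of the 124 genes had an unadjusted p under 0.05. The reactive astrocyte list, to which 3 of the 124 belong, scored 3.15 in mouse 39 and 2.39 to 2.74 in the other 7, and its median log2 fold change was 0.06 over 20 genes and 0.08 without mouse 39. Gfap was lowest in mouse 39, at 369 CPM. The library also had the smallest total count of the 8.

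Smaller sets marked further mice. In anle138b-treated mouse 33, genes of pituitary hormones had counts. Prl (prolactin) was at 240 CPM, Gh (growth hormone) at 67.3 CPM and Pomc, the precursor of corticotropin, at 20.5 CPM. In the other 7 mice they were at no more than 2.72, 0.295 and 1.69 CPM. Prl and Gh did not pass the filter on low counts, and Pomc had a log2 fold change of 2.81 (interval -0.30 to 5.92). The same 3 hormones were high in placebo-treated WT mouse 52 of 10 months, at 342, 109.2 and 315 CPM. In anle138b-treated mouse 41, the smooth muscle genes Myh11 and Tagln were at 12.4 and 12.1 CPM, against 4.25 to 5.52 CPM and 4.05 to 6.62 CPM in the other 7. Blood cell markers were higher in all 7 members tested (median log2 fold change 0.62), with scores of 0.90 to 2.03 under placebo and of 2.54 and 2.96 in mice 33 and 41, while mice 39 and 83 lay inside the placebo range at 1.79 and 1.76. S100a8, a neutrophil protein, was at 0.120 to 0.454 CPM under placebo and at 1.17, 0.507, 0.836 and 0.262 CPM in mice 33, 39, 41 and 83 (unadjusted p = 0.0393, edgeR). The cause was not tested.

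Some genes were either on or off. A gap of at least 8-fold between neighbouring mice, again after adding 0.1 CPM, split 68 of the tested genes. It set mouse 39 above the rest in 47 of them and mice 77 and 83 below the rest in 13, and 8 genes split the mice in other ways. One was Xist, one Pomc, and one Alb, the albumin gene, at 3.16 to 9.33 CPM in mice 30, 31, 33 and 41. The other 5 were an lncRNA and 4 processed pseudogenes, each on in mice of both groups. The lncRNA Gm26825 (chromosome 5, 5781530 to 5783636) was at 16.5, 17.7, 0.0718 and 12.02 CPM under placebo and at 13.2, 11.3, 0.0491 and 0.112 CPM under anle138b. Gm6472 (chromosome X) was at 9.89, 0.454, 0.395 and 11.1 CPM and at 0.291, 0.338, 10.5 and 0.488 CPM in the same order, and Rpl3-ps1, Gm11942 and Gm11868 split the mice in other ways. No 2 of these 5 split the 8 mice in the same way. In the series as a whole, Gm6472 reached 1 CPM in 5 of the 16 mice of 6 months and in none of the 22 mice of 10 months, and Gm26825 did so in mice of both ages. Reads of such pseudogenes can belong to their parent genes, and the authors' counting may divide them, so their levels are uncertain.

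A set of 7 genes was called under some other settings, and it is given as a description. Eno1b, Gm5855 and Zfp990 did not pass the filter on low counts in the 8 mice. Eno1b and Gm5855 were called by DESeq2 on all genes with a count in all 8 mice (adjusted p = 0.000234 and 0.00202), while edgeR without the filter called 0 genes there. Both were also called by edgeR without mouse 83, where they passed the filter through the 3 treated mice in which they were high, so that this fit had to favour them. All 7 were called in 3 placebo-treated against 2 anle138b-treated mice, without mice 39, 77 and 83. There too Eno1b, Gm5855 and Zfp990 passed the filter only through the treated mice in which they were high. Those settings, apart from leaving out mouse 83 alone, were chosen after seeing the data, and the treated mice they left out had placebo levels of some or all of these genes. In all 8 mice Casp9, Eno1, Masp2 and Akr1e1 had an adjusted p of 0.9998 (edgeR). Eno1b is an intronless copy of Eno1, the gene of the glycolytic enzyme α-enolase, and Gm5855 is annotated as a processed pseudogene. Eno1b was at 0.0894 CPM or less in the 4 placebo-treated mice and at 8.07, 2.14, 7.08 and 0.113 CPM in mice 33, 39, 41 and 83. Gm5855 was at 0.144 CPM or less under placebo and at 6.66, 17.7, 7.72 and 0.113 CPM. Mouse 83 thus had the placebo level of both. Mouse 39, the library with 44 pseudogenes far above the other mice, had the highest Gm5855 but the lowest Eno1b of the 3, and the part of that set in its Gm5855 value was not tested. Eno1 itself (chromosome 4, 150236721 to 150248879) was lower in the 3 mice in which these were above 1 CPM, at 117, 142 and 115 CPM in mice 33, 39 and 41, against 173 CPM in mouse 83 and 170 to 193 CPM under placebo. The remaining 4 genes were high or low in mice 33 and 41 alone. Casp9, an initiator caspase, was at 59.8 and 57.5 CPM there and at 32.4 to 38.5 CPM in the other 6 mice, Masp2, a complement-activating protease, at 2.58 and 1.97 CPM against 0.281 to 0.538 CPM, and Akr1e1, an aldo-keto reductase, at 15.9 and 17.5 CPM against 26.01 to 35.4 CPM. Zfp990, a zinc finger gene, was at 1.29 and 1.38 CPM there and at 0.113 CPM or less elsewhere.

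Casp9, Zfp990, Masp2 and Eno1 lie within 9 Mb of each other on chromosome 4, from 141793612 to 150248879, whereas Akr1e1 lies on chromosome 13. The same pattern was present in the anle138b-treated APPPS1ΔE9 mice of 6 months. There 2 of 4 mice, 15 and 84, had Eno1b at 9.18 and 8.20 CPM, Gm5855 at 8.42 and 8.83 CPM, Casp9 at 60.2 and 64.7 CPM, Masp2 at 2.25 and 1.82 CPM and Akr1e1 at 16.9 and 16.6 CPM. The other 2 mice had Eno1b at 0.147 CPM or less and Casp9 at no more than 34.9 CPM. None of the 8 placebo-treated mice of 6 months and none of the 22 mice of 10 months, 12 of them anle138b-treated, had Eno1b above 0.258 CPM or Casp9 above 40.8 CPM. Eno1 was less clear, at 141 and 127 CPM in mice 15 and 84 and at 164 and 179 CPM in the other 2, and it ranged from 126 to 202 CPM at 10 months, where its copy Eno1b was near 0. Whether reads were divided between Eno1 and its copies, and what sets these 5 mice apart, was not tested. Miip, Fbxo2 and Fbxo44, named above for their p, lie in the same stretch of chromosome 4. Miip and Fbxo44 were lowest in mice 33 and 41, at 13.2 and 14.4 CPM and at 89.6 and 92.2 CPM. Fbxo2 was lowest in mice 41 and 39. In treated APPPS1ΔE9 mice of 6 months the log2 fold change was -0.31 for Miip, -0.05 for Fbxo44 and 0.01 for Fbxo2. Whether they vary apart from Casp9, Zfp990, Masp2 and Eno1 was not tested.

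**Figure D5:**
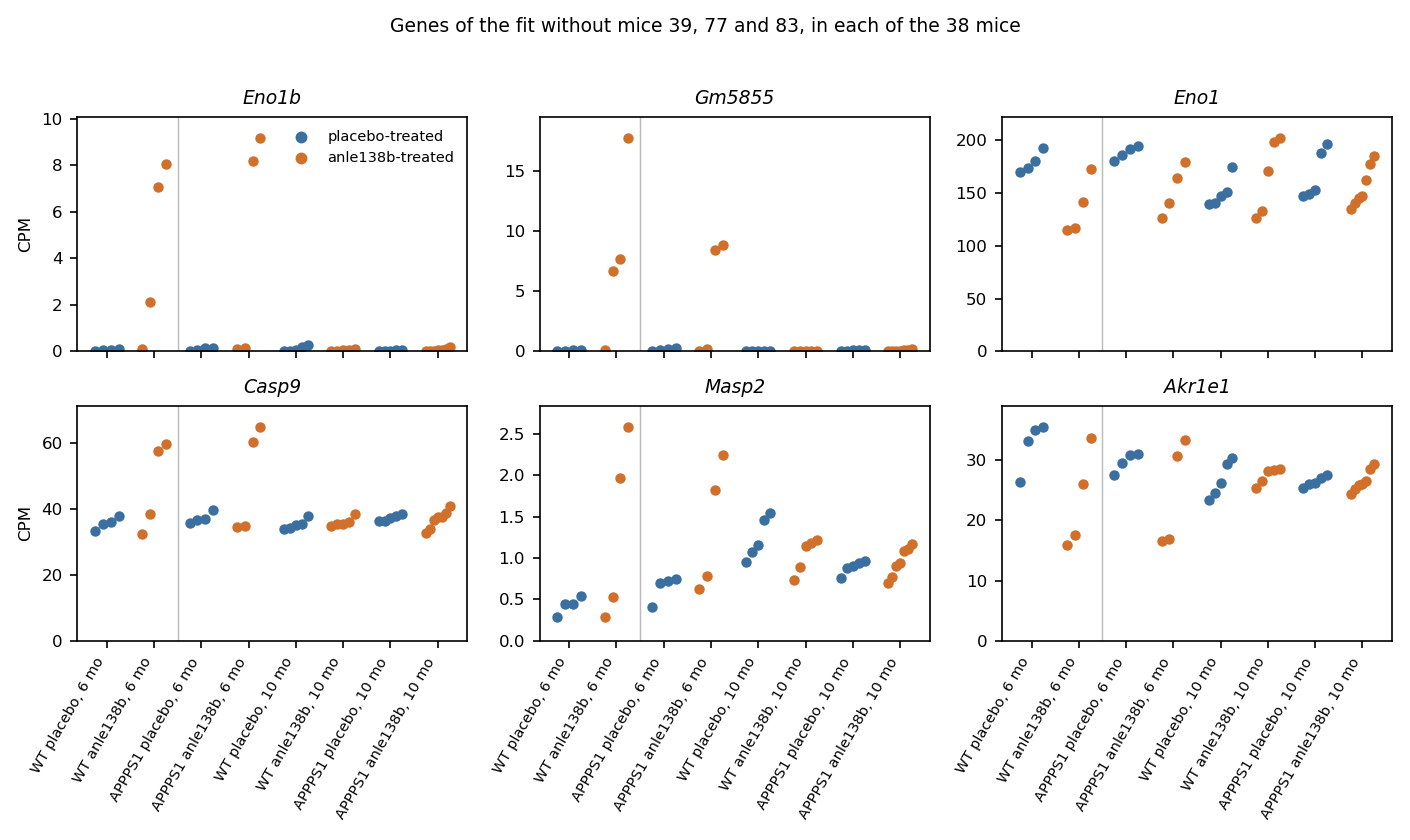
CPM (vertical axes from 0) of 6 genes called without mice 39, 77 and 83, with a point for every mouse of the 8 groups of the series, placebo-treated blue and anle138b-treated orange, sorted by value within a group and with WT mice of 6 months to the left of the line. Eno1b, Gm5855, Casp9 and Masp2 are high, and Eno1 and Akr1e1 low, in some anle138b-treated mice of 6 months of either genotype, and in the other groups Eno1b stays at 0.258 CPM or less, whereas Eno1 also spreads from 126 to 202 CPM at 10 months.

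The same treatment was compared in mice that share no control with these. Over 16429 genes, the log2 fold changes of WT mice of 6 and of 10 months correlated at r = -0.04 (Pearson) and -0.03 (Spearman), as a description across genes, which are not independent of each other. Of the 310 genes with an unadjusted p under 0.05 at 6 months 299 were tested at 10 months, and 137 of them (45.8%) had the same sign there, beside 49.2% of all genes. In APPPS1ΔE9 mice of 6 months r was 0.01, and 142 of 305 genes (46.6%) had the same sign, beside 49.5% of all genes. Of the 20 genes of smallest p, 19 were tested at 10 months and 9 had the same sign. Ankrd61, the only one of these with an unadjusted p under 0.05 at 10 months, had the opposite sign there, with -0.33 against 0.97 on the log2 scale. The oxidative phosphorylation list had medians of 0.05 in WT mice of 10 months and 0.15 in APPPS1ΔE9 mice of 6 months, against -0.04 here. Oligodendrocyte precursors had 0.06 and 0.07 there, astrocytes 0.05 and 0.07, and interneurons 0.12 and 0.13. Myelin genes had -0.095 and 0.07, and microglial genes -0.01 and -0.20. Cholesterol synthesis genes had 0.26 and 0.14 there, against 0.04 here, so the sign was the same. Ah receptor targets had -0.09 and -0.10 there, against 0.03 here. The difference between the drug's effect at 10 and at 6 months was tested in a single fit of all 18 WT mice, and 0 of 17741 genes passed the adjusted p of 0.1 (percent called 0).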

How the data were processed

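Total hippocampal RNA of single mice was made into mRNA libraries and sequenced as single reads. The authors aligned reads with STAR to mm10, counted them per gene with HTSeq in its intersection-nonempty mode and deposited raw counts; whether strand was used is not given in the sources used here. Groups followed the titles. The members and gene lists were chosen with earlier results of these data known. Counts of the 8 mice were fitted with edgeR 4.0.16 (R 4.3.3): genes kept by filterByExpr (minimum count 10, minimum total 15), TMM factors, robust quasi-likelihood test, Benjamini-Hochberg adjusted p under 0.1 as threshold. Standard errors were the fold change over the root of F. DESeq2 1.42.0 and limma-voom (limma 3.58.1) were alternatives. List scores were means of log2 CPM (TMM, prior count 2), and other CPM were relative to the total count. Positions are from GENCODE annotation of mm10. Scripts were tested on simulated data. Nothing says that mice came from separate litters, so p-values measure the spread between these mice only, and their number limits precision.

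The genes named were the 10 of smallest p in each direction, the 15 of largest spread within groups, the 5 of largest loading at each end of the first 2 principal components, label checks, and from each list its first tested gene, the 2 of largest change and the 2 of largest spread. Others, such as Eno1 and its neighbours, the genes of mouse 39 and single list members, were named after their values were seen. Alternatives changed the filter, scaling, tool, covariates, mice and groups fitted.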

Additional observations from a re-analysis of the deposited data

Results flagged for a closer look

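In 19 of 148 groups of 4 mice examined, the highest or lowest mouse lay beyond Dixon's 95% limit, where chance sets about 1 in 20 groups apart, and the named genes had been chosen partly for their spread. Values are log2 CPM with TMM scaling. Among gene list scores this held for 4 of 78 groups, about the share that chance sets apart. Cholesterol synthesis was low in placebo-treated mouse 37 (5.098, nearest mouse 5.225), and mural cell genes were high in anle138b-treated mouse 41 (4.008, nearest 3.606). Choroid plexus genes were low in anle138b-treated mouse 83 (2.054, nearest 5.782). X genes that escape inactivation were low in mouse 37 (4.389, nearest 6.382). Their list includes Xist, at 1.40 CPM in mouse 37 and at 1154 to 1353 CPM in the other placebo-treated mice.

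Genes of the choroid plexus made up 8 of the single-gene cases. Ttr was low in mouse 77 (7.123) and in mouse 83 (7.706), and Kcne2 likewise (0.626 and 0.241). In mouse 83 Tmem72 (0.955), Kcnj13 (0.331), Slc4a5 (0.807) and Aqp1 (0.775) were low too.

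Placebo-treated mouse 37 was low for Xist (0.562), for the lncRNA Gm26825 (-2.676), for the pseudogene Gm11942 (-3.05) and for A430035B10Rik (1.058, nearest 1.147). Mouse 39 was high for the pseudogenes Gm12017 (6.197) and Gm5210 (5.544), and mouse 41 for Gm6472 (3.402). The causes were not tested.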

How the results depend on the processing

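The count of 0 genes past an adjusted p of 0.1 became 2 with DESeq2 on all genes with a count (Eno1b and Gm5855). It became 1 with lane 4 only (Gm5855, which passed the filter there through the treated mice). It was 7 without mice 39, 77 and 83, and 0 to 2 when single mice were left out (2 without anle138b-treated mouse 83). The 310 genes under an unadjusted p of 0.05 became 722 without a filter on low counts, 1062 with lane as a covariate, 924 in lane 4 only (which held 2 of 4 treated and all placebo-treated mice), 557 with all 4 groups of 6 months, 632 without mice 77 and 83, and 665 without mice 39, 77 and 83. Leaving out single mice gave 169 (without mouse 30) to 644 (without mouse 77), with 537 without mouse 83. With the replicate block the count was 510 and 0 genes were called. Same-numbered mice correlated at 0.13, 0.03, 0.18 and 0.56, and 3 of 4 placebo-treated mice correlated best with their own number while mouse 31 did not (0.29 with another), but not every pair passed 0.1, and the numbers were not taken to pair the mice. The difference between ages had 0 calls and 1 with the replicate block (Gh), and 0 to 1 without single mice (Eno1b, without mouse 83). The log2 fold change of Tmem91 went from -0.51 to 0.015 in WT mice of both ages. Vim and Ptx3 moved by more than the spread without mouse 39, and the other 429 values of named genes were counted as unchanged. For the 20 genes of smallest p this meant only that the sign held and no call arose. The size of their changes was not set against the spread. Of the list medians 39 moved by more than the spread and 819 did not. Between 14359 and 16992 genes had intervals within 2-fold. The fits without mice 77 and 83 (list medians and single genes included), without 39, 77 and 83, without mouse 39 with the choroid plexus covariate, with mouse number, and DESeq2 on all genes were chosen after seeing the data. The causes were not tested.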

Other observations

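Genes under an unadjusted p of 0.05 were counted in windows of 5 Mb with at least 20 tested genes. Among 320 windows, the highest share was on chromosome 4 between 130 and 135 Mb, with 9 of 87 genes (10.3%), and the next on chromosome 4 between 145 and 150 Mb, with 5 of 50 genes (10%), beside 1.85% of all genes. The windows are given because they ranked highest, with no test. The genes counted in the second include Miip, Fbxo44, Fbxo2 and Masp2, so this window is part of the stretch described above. In the first, Hmgn2, Map3k6 (a kinase of the stress response, log2 fold change 0.43), Sfn (14-3-3σ, 1.26), Cep85, Gmeb1 and Slc30a2 (a zinc transporter, 0.35) were higher in anle138b-treated mice, and Col16a1 (a collagen, -0.43), Crybg2 (-0.54) and Zdhhc18 (-0.13) were lower. Casp9, Zfp990 and Masp2, which differed in mice 33 and 41, and Eno1, which was lower in mouse 39 as well, lie on the same chromosome.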
